A study of Mus musculus with 2 samples.

Results

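The miR-30 family of the mouse comprises 6 microRNA (miRNA) genes in 3 pairs, Mir30a with Mir30c-2, Mir30b with Mir30d, and Mir30e with Mir30c-1, and it is described here in the adrenal gland. The 6 genes were picked by name, as the entries of the count tables whose gene identifier carries 1 of these symbols in the GENCODE M21 annotation, and all 6 were found among the 2202 miRNA genes of the tables. Small RNA was sequenced from adrenal gland tissue of adult female mice aged 8 to 10 months, of a strain given as 5xFAD/CAST. The 5xFAD transgenes encode mutant human amyloid precursor protein and presenilin under the neuronal Thy1 promoter and are used to model Alzheimer's disease in mice. The CAST strain goes back to wild-caught castaneus mice. The labels do not say which animals carry the transgenes, and no group of another genotype is included. The study holds 1 group with 2 libraries, labelled biological replicates 1 and 2, from separate biosamples with the same donor identifier, so their spread may be partly technical. No condition can therefore be compared, and what the design allows is a comparison of loci, of the partners within a locus and of the libraries.

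A miRNA gene is transcribed into a hairpin from which a 5p and a 3p arm are cut, and the loaded arm guides silencing of mRNAs that match its seed, bases 2 to 8. The miR-30 genes form a family because their 5p arms share a seed, so that the same mRNAs can be bound by products of different chromosomes. The family is widely expressed and is best known from kidney and heart. Among its described targets are Becn1, an autophagy gene, for miR-30a in human cells, and Mttp, which loads lipid onto lipoproteins, for miR-30c in mice.

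The arms are shown because a read can be assigned to a gene only where its sequence differs from that of the relatives. Sequences were available from RefSeq (GRCm38.p6) for 4 of the 6 members, and Mir30b and Mir30d are named only. In the 5p arms the seed is in capitals, and it is GUAAACA in each of them:
miR-30a-5p: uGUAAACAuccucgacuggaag
miR-30e-5p: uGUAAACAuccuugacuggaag
miR-30c-5p (Mir30c-1 and Mir30c-2): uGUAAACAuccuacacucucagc

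The 3p arms of the 4 members with a sequence fall into 2 seed groups, again with the seed in capitals. These are UUUCAGU for Mir30a and Mir30e and UGGGAGA for the Mir30c genes, while Mir30b and Mir30d were not examined:
miR-30a-3p: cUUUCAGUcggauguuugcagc
miR-30e-3p: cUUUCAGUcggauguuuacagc
miR-30c-1-3p: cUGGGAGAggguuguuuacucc
miR-30c-2-3p: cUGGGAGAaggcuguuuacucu

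Counting from 1 at the 5′ end, with the miR-30a base first and the miR-30e base last, these arms differ by the single substitution C13U in the 5p arm and G18A in the 3p arm, so each pair of arms is identical at 21 of 22 bases. The 5p arms of miR-30a and miR-30c are identical at 17 of the 22 bases compared. The miR-30c-5p arm, of 23 bases, is the same at both loci, whereas the 3p arms of the Mir30c genes differ at 3 of 22 bases, A9G, C12U and U22C, with the base of miR-30c-2 first. The hairpins of the Mir30c genes are printed with their longest common run in capitals, a stretch of 28 bases that contains the whole 5p arm:
Mir30c-1: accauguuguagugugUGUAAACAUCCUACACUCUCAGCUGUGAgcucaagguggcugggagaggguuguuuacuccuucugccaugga
Mir30c-2: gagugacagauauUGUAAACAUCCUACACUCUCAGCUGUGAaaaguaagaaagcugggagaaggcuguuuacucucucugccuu

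A read that lies wholly within those capitals matches chromosome 1 and chromosome 4 equally well. Reads with several genomic matches were counted on no gene in the deposited tables and made up 33.6% of the whole library in replicate 2 and 31.6% of it in replicate 1. The counts of Mir30c-1 and Mir30c-2 below are thus counts of reads that lie outside the shared run or reach beyond it, and they are too low by an unknown amount as measures of miR-30c. No arm of Mir30a or Mir30e occurs in another of the 1005 hairpins searched, though their 3p arms share runs of 15 bases with each other. The hairpins of Mir30b and Mir30d were not among those searched.

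In mm10 coordinates, Mir30a (ENSMUSG00000065405.3) lies on the plus strand of chromosome 1 at 23272269 to 23272339, in no other annotated gene, and Mir30c-2 (ENSMUSG00000065567.1) lies at 23291701 to 23291784 within exonic sequence of the noncoding gene Gm27028. The gap between them is 19361 bases, the widest of the 3 loci. Mir30b (ENSMUSG00000065476.2, chromosome 15, 68337415 to 68337510, minus strand) overlaps an exon of the noncoding gene Gm26621, and Mir30d (ENSMUSG00000065437.1, 68341208 to 68341289), which lies 3697 bases away, overlaps exons of the noncoding genes Gm20732 and Gm37296. Mir30e (ENSMUSG00000065409.1, chromosome 4, 120772606 to 120772697, minus strand) and Mir30c-1 (ENSMUSG00000065490.1, 120769534 to 120769622) are separated by 2983 bases and lie in introns of Nfyc on its own strand. Nfyc encodes a subunit of NF-Y, the factor that binds CCAAT boxes in promoters. Only the Nfyc locus is thus inside a protein-coding gene, and the nearest coding genes outside the other loci are Ogfrl1, 74639 bases from Mir30c-2, and Zfat, 78558 bases from Mir30b. An annotated gene on the opposite strand, Mir30f (ENSMUSG00000105585.1), covers exactly the same bases as Mir30e.

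CPM here means the number of reads on a gene for every 1000000 reads counted on miRNA genes. The library totals were 6924829 such reads in replicate 2 and 3635851 in replicate 1, a ratio of 1.90. A gene without reads could hold up to 0.433 CPM in replicate 2 and 0.825 CPM in replicate 1, taking 3 counts as the limit that a count of 0 allows. Intervals and limits cover counting error only, since reads amplified by PCR are not independent molecules. The tables count precursor genes and do not separate the arms of a hairpin, and differences in ligation between sequences touch every comparison of levels between genes. In these bulk samples, fewer cells of a type and less miRNA per cell cannot be told apart.

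All 6 members counted as detected, by a minimum of 10 reads per library, and so did 356 of the 2202 genes. The family split into 3 abundant and 3 scarce genes, 1 of each at every locus. The abundant ones were Mir30a, Mir30d and Mir30e. Mir30a had 37311 reads or 5388 CPM in replicate 2 and 21972 reads or 6043 CPM in replicate 1, a mean of 5716 ± 463 CPM (SD, n = 2). Mir30d had 43567 reads or 6291 CPM in replicate 2 and 17792 reads or 4893 CPM in replicate 1, a mean of 5592 ± 988 CPM. Mir30e had 20503 reads or 2961 CPM in replicate 2 and 30583 reads or 8412 CPM in replicate 1, a mean of 5686 ± 3854 CPM. The means of these genes lay within the spread of each other, at ranks 30, 31 and 32 of all genes for Mir30a, Mir30e and Mir30d. The spread was far wider for Mir30e than for the others, and the shallower library held the larger number of its reads.

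The scarce members were Mir30c-2, Mir30b and Mir30c-1. Mir30c-2 had 1900 reads or 274 CPM in replicate 2 and 948 reads or 261 CPM in replicate 1, a mean of 268 ± 9.64 CPM. Mir30b, whose cluster with Mir30d is known from human melanoma, had 1083 reads or 156 CPM in replicate 2 and 1069 reads or 294 CPM in replicate 1, a mean of 225 ± 97.3 CPM. Mir30c-1 had 1140 reads or 165 CPM in replicate 2 and 516 reads or 142 CPM in replicate 1, a mean of 153 ± 16.1 CPM. The levels of Mir30c-2 and Mir30b, and of Mir30b and Mir30c-1, overlapped between the libraries, whereas both values of Mir30c-2 exceeded both of Mir30c-1. Even the lowest value of an abundant member, that of Mir30e in replicate 2, was 10.1 times the highest value of a scarce one, that of Mir30b in replicate 1. Mir30a, Mir30d and Mir30e together held 96.1% of the family's reads in replicate 2, with a 95% binomial interval of 96.0 to 96.2% (exact, Clopper-Pearson), and 96.5% in replicate 1, with an interval of 96.4 to 96.7%. For Mir30c-1 and Mir30c-2 the shared 5p arm described above sets a limit to this comparison. Whether reads with several matches also lower the counts of Mir30b and Mir30d was not tested, as their sequences were not available.

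**Figure D1:**
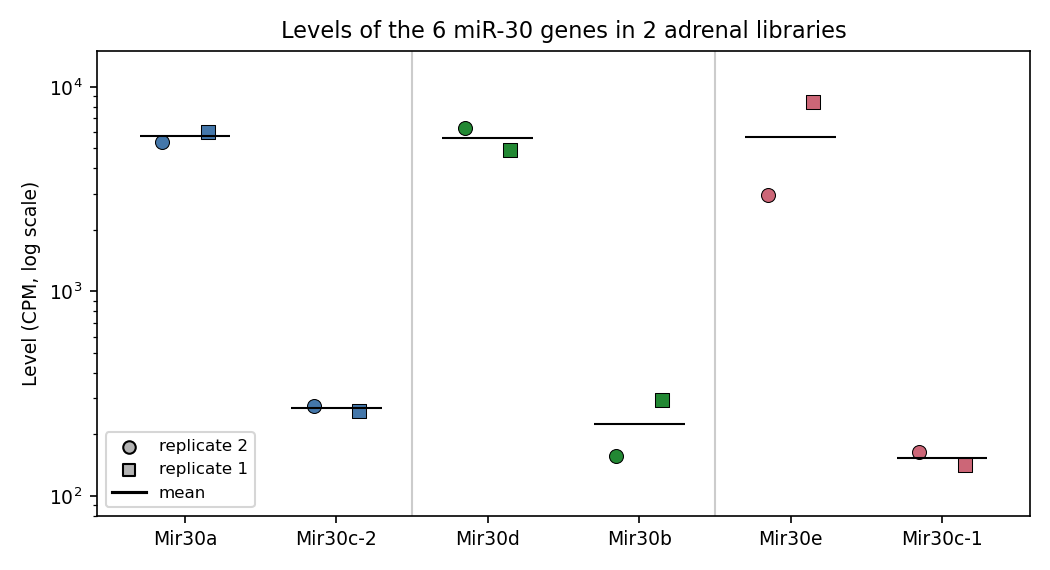
Levels of the 6 miR-30 genes in CPM on a log axis, with circles for replicate 2, squares for replicate 1, a line at the mean of both libraries and colours for the 3 loci. Each locus pairs an abundant gene, at 2961 CPM or more, with a scarce one, at 294 CPM or less, and the points of Mir30e, at 2961 and 8412 CPM, lie farthest apart among the abundant genes.

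The family as a whole took 1.52% of the miRNA-gene reads in replicate 2, with an exact interval of 1.51 to 1.53%, and 2.00% in replicate 1, with an interval of 1.99 to 2.02%, a mean of 1.76% ± 0.340 (SD, n = 2). The difference of the family share, replicate 2 minus replicate 1, was -0.481 percentage points, and that of Mir30e alone was -0.545 points. The other 5 genes summed to 1.23% in replicate 2 and 1.16% in replicate 1, a difference of 0.06 points in the opposite direction.

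The 3 loci contributed nearly equal mean shares of the family's reads and opposite orders in the libraries. The Mir30b and Mir30d locus on chromosome 15 held 42.3% of miR-30 reads in replicate 2 (exact interval 42.0 to 42.6%) and 25.9% in replicate 1 (25.6 to 26.2%), a mean of 34.1% ± 11.6 (SD, n = 2). The Mir30a and Mir30c-2 locus on chromosome 1 held 37.2% in replicate 2 (36.9 to 37.5%) and 31.4% in replicate 1 (31.1 to 31.8%), a mean of 34.3% ± 4.04. The Nfyc locus on chromosome 4 held 20.5% in replicate 2 (20.3 to 20.8%) and 42.7% in replicate 1 (42.3 to 43.0%), a mean of 31.6% ± 15.7. The Mir30b and Mir30d locus thus came first in replicate 2 and last in replicate 1, and the Nfyc locus the reverse, with intervals that do not overlap within a library. Between the loci, the means did not differ beyond the spread of the libraries. On the CPM scale the sums of the loci had log2 ratios, replicate 2 over replicate 1, of 0.31 for the chromosome 15 locus, -0.15 for the chromosome 1 locus and -1.45 for the Nfyc locus.

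**Figure D2:**
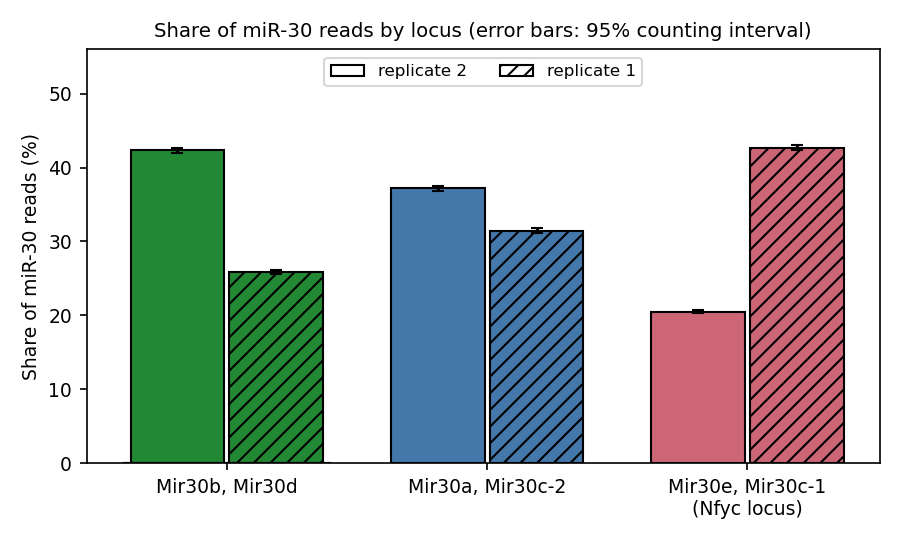
Share of miR-30 reads in percent for the 3 loci, with plain columns for replicate 2, hatched columns for replicate 1 and error bars for the exact 95% counting interval. The locus of Mir30b and Mir30d stands at 42.3% in replicate 2 against 25.9% in replicate 1, and the Nfyc locus at 20.5% against 42.7%.

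Partners of a locus were unequal in every case. Mir30a had 19.6 reads for each read of Mir30c-2 in replicate 2 (95% counting interval 18.8 to 20.6) and 23.2 in replicate 1 (21.7 to 24.8). Mir30d had 40.2 reads for each read of Mir30b in replicate 2 (37.9 to 42.8) and 16.6 in replicate 1 (15.6 to 17.7). Mir30e had 18.0 reads for each read of Mir30c-1 in replicate 2 (16.9 to 19.1) and 59.3 in replicate 1 (54.3 to 64.8). The more abundant partner therefore held between 94.3% and 98.3% of the reads of its locus in either library, while the size of the imbalance moved by more than the counting intervals at all 3 loci. The Mir30c genes take part in 2 of the 3 ratios, which are upper limits so far as their 5p reads are missing. Whether such reads are also missing for Mir30b and Mir30d was not tested.

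Against other neighbouring miRNA genes these imbalances in counted reads were large but not extreme. Reads with several matches are missing from the other pairs as well. How far this sets their differences, and with them the median, quartiles and ranks, was not tested. Over the 94 pairs of consecutive same-strand genes within 10 kb that had at least 10 reads per gene and library, the median absolute log2 difference between partners was 2.70, with quartiles of 1.00 and 4.40. Mir30e and Mir30c-1 stood at 5.03, rank 16, and Mir30d and Mir30b at 4.69, rank 21. Mir30a and Mir30c-2 are too far apart for that window, and among 99 pairs within 25 kb, a limit chosen after the distances were seen, they stood at 4.42, rank 27.

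The partner shares were compared between the libraries by Fisher's exact test in its two-sided form, adjusted by Benjamini-Hochberg over all pairs, which called 63.8% of the 94 pairs. With that background, a call shows only that the counting error was exceeded. Mir30e and Mir30c-1 were called with an adjusted p of 7.34e-118, and Mir30d and Mir30b with an adjusted p of 7.24e-86. Mir30a and Mir30c-2 had an adjusted p of 7.69e-05 by the same exact test within 25 kb, where 64.6% of pairs were called. The size of the shift was taken as the absolute change of the log2 partner ratio from library to library. This shift was 1.72 for Mir30e and Mir30c-1, rank 3 of 94, and 1.27 for Mir30d and Mir30b, rank 10, against a median of 0.49 and quartiles of 0.22 and 0.84 over the 94 pairs. For Mir30a and Mir30c-2 it was 0.24, rank 74 of 99, the smallest of the 3.

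**Figure D3:**
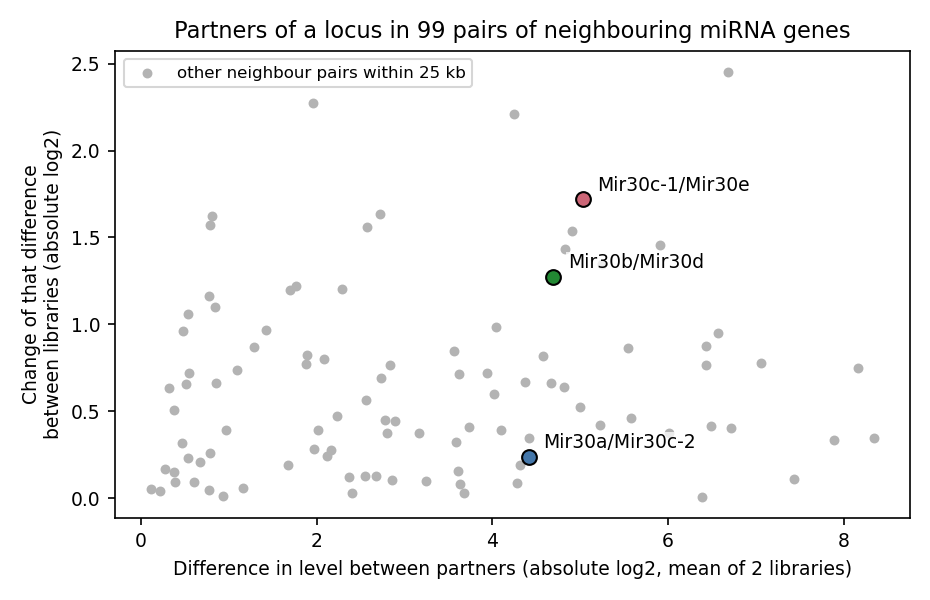
Each point is 1 of 99 pairs of neighbouring miRNA genes within 25 kb, with the absolute log2 difference between the partners, averaged over both libraries, on the x axis and its absolute change between the libraries on the y axis. The 3 miR-30 pairs lie at 4.42 to 5.03 on the x axis, and on the y axis Mir30c-1 and Mir30e lie at 1.72, Mir30b and Mir30d at 1.27 and Mir30a and Mir30c-2 at 0.24.

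Gene by gene, the members went different ways between the libraries, and at 2 of the 3 loci the partners had ratios of opposite sign under each scaling used. The two-sided Fisher's exact test per gene, adjusted by Benjamini-Hochberg over the 455 genes with a total of 10 reads or more, called 5 of the 6 members, 2 of them higher in replicate 2 and 3 lower. It called 52.5% of all tested genes, 16.9% higher and 35.6% lower, so the count for the members is no result of its own. The median log2 ratio, replicate 2 over replicate 1, was -0.05 over the 6 members and -0.18 over all tested genes.

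Mir30e was lower in replicate 2, at 2961 CPM against 8412 CPM, with a log2 ratio of -1.51 (counting interval -1.53 to -1.48) and an adjusted p in Fisher's exact test too small for floating point representation. Its partner Mir30c-1 was slightly higher, with a log2 ratio of 0.21 (0.06 to 0.37, adjusted p = 0.0111 by the exact test). Mir30b was lower in replicate 2, with a log2 ratio of -0.91 (-1.03 to -0.79, adjusted p = 7.27e-47 by the exact test), whereas its partner Mir30d was higher, with 0.36 (0.34 to 0.39, adjusted p = 3.62e-181 by the exact test). Mir30a had a log2 ratio of -0.17 (-0.19 to -0.14, adjusted p = 1.62e-40 by the exact test) and was called only with plain totals, as TMM normalization gave -0.02 (adjusted p = 0.112) and DESeq2 size factors gave 0.01 (adjusted p = 0.494). Mir30c-2, with a log2 ratio of 0.07 (-0.04 to 0.19), was not called with plain totals (adjusted p = 0.300 by the exact test), but was called under both of these scalings, at 0.22 and 0.25. TMM moved the median over all tested genes to -0.04, and the calls over all genes to 111 higher and 125 lower, against 77 higher and 162 lower with plain totals. DESeq2 size factors gave 119 higher and 121 lower.

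Fisher's test takes no account of the spread that 2 libraries of the same group show. edgeR's exact test includes it, through 1 dispersion for all genes that corresponds to a biological coefficient of variation of 31.4%. With it, 0 of the 6 members were called and 1.1% of all tested genes, 5 of 455. Mir30e came nearest among the members, with an unadjusted p of 0.0229 and an adjusted p of 0.549 in edgeR's exact test, and 26 of the 455 genes had an unadjusted p under 0.05. The other 5 members had an adjusted p of 1 there. No member was thus called by this test, which does not show that the members were alike in both libraries. The dispersion of the test was estimated on the same 2 libraries, so differences shared by many genes widen it and the test can then miss them. On simulated counts with many genes changed, the test with its estimated dispersion called none of the changed genes.

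The log2 ratio of Mir30e ranked 24 from the lowest of 455 tested genes, and the genes with lower ratios all averaged under 1000 CPM. Among the 76 genes that averaged 1000 CPM or more, a limit set after the values were seen, Mir30e had the lowest ratio, and Mir31 and Mir674 exceeded it in absolute size, at 1.72 and 2.13. The red cell markers Mir451a and Mir144 were also lower in replicate 2, at a summed 175 CPM against 427 CPM in replicate 1, and their part in the difference of Mir30e was not tested.

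**Figure D4:**
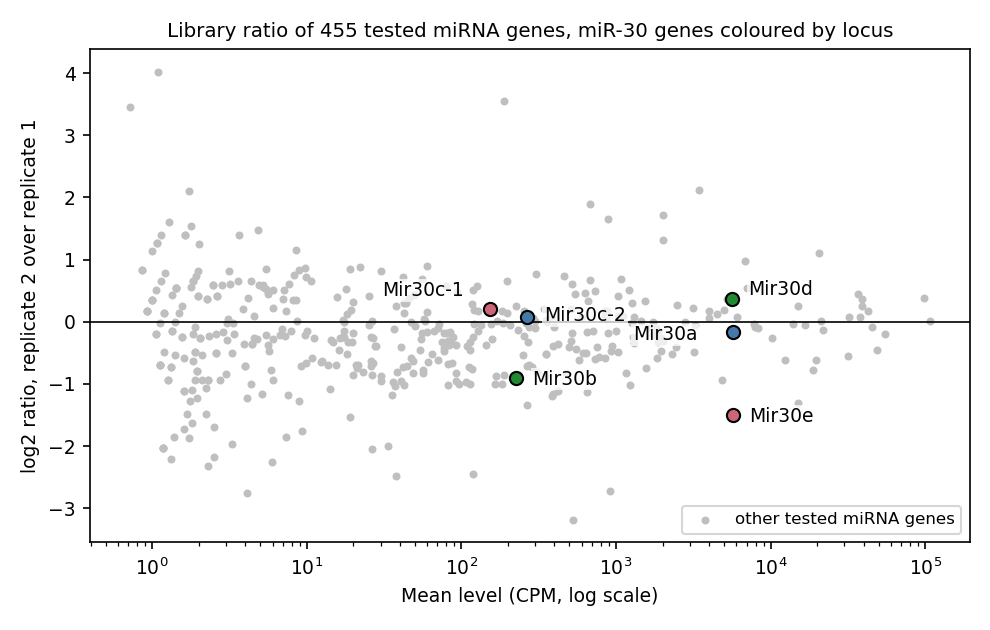
Log2 ratio of CPM, replicate 2 over replicate 1, against the mean level on a log axis for 455 tested miRNA genes, with the miR-30 genes coloured by locus. Mir30e at -1.51 lies below the other genes of its level, Mir30b at -0.91 lies below its partner Mir30d at 0.36, and Mir30a and Mir30c-2 lie close to 0.

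Mir30e can be seen only in the column that counts reads of 1 strand, which is the column used here. In the column without regard to strand it had 0 reads in both libraries. Mir30f covers the same bases on the opposite strand, and without strand a read there cannot be given to either gene. The other 5 members have the same count in both columns. Mir30f itself had 0 reads on its own strand, and in the column for the opposite strand it had 20503 reads in replicate 2 and 30583 in replicate 1, exactly the counts of Mir30e. No member had a read in the opposite-strand column, so all reads counted over this hairpin came from the strand of Mir30e and Nfyc. The 29 detected genes that overlap a miRNA gene on the opposite strand had a median log2 ratio of -0.33 between the libraries, with quartiles of -0.88 and -0.09, against -0.18 for the 327 detected genes without such an overlap. Mir30e had the second lowest ratio of the 29, after Mir129-2 at -2.72.

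The seed GUAAACA occurs in 1 more gene of the RefSeq table, Mir384 on the X chromosome, known from brain, whose 5p arm departs from the family right after the seed:
miR-384-5p: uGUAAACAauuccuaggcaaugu

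Mir384 had 68 reads or 9.82 CPM in replicate 2 and 55 reads or 15.1 CPM in replicate 1, a mean of 12.5 ± 3.75 CPM (SD, n = 2). Both values were below those of every member, the lowest of which was 142 CPM for Mir30c-1 in replicate 1. The annotated mature sequence of Mir30f, which received no reads on its strand, begins 1 base further into the same motif and has the seed UAAACAU:
miR-30f: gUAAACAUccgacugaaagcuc

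The seed of the miR-30c 3p arms is shared by Mir6958, which had 4 reads in replicate 2 and 1 read in replicate 1. Among the genes with a RefSeq sequence, no other shares the 3p seed of Mir30a and Mir30e. Mir30b and Mir30d had no sequence to search, so this does not cover them.

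By distance in log2(CPM + 1) over the 2 libraries among the detected genes, which is a likeness of level only, the genes nearest to Mir30a were Mir98 (0.21) and Mir27b (0.37), and those nearest to Mir30d were Mir382 (0.15) and Mir27b (0.24). Mir30c-2 was closest to Mir7-1 (0.05) and Mir1843b (0.07), Mir30b to Mir350 (0.35) and Mir451a (0.37), and Mir30c-1 to Mir700 (0.18) and Mir181b-2 (0.26). Mir30e had the most distant neighbours, Mir99b (0.43) and Mir30a (0.99).

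Set beside other families with paired genes at several loci, miR-30 had the largest sum of the 3 families described in both libraries. The miR-30 family summed to 15236 CPM in replicate 2 and 20045 CPM in replicate 1. The miR-29 family, 4 genes that are known to restrain collagen genes, summed to 11268 CPM in replicate 2 and 16394 CPM in replicate 1, nearly all from the locus of Mir29a and Mir29b-1 with 9904 and 15088 CPM. The miR-181 family, 6 genes known from lymphocytes and brain, summed to 1355 CPM in replicate 2 and 1642 CPM in replicate 1, mostly from Mir181c and Mir181d with 1136 and 1410 CPM. The absolute log2 difference between partners was 8.17 for Mir29a and Mir29b-1, the widest of the 94 pairs, and 5.58 for Mir29b-2 and Mir29c. Among the miR-181 pairs it was 4.01 for Mir181a-2 and Mir181b-2, 3.73 for Mir181a-1 and Mir181b-1 and 0.53 for Mir181c and Mir181d. The miR-30 pairs, at 4.42 to 5.03, thus lay below both miR-29 pairs and above the 3 miR-181 pairs. How far reads with several matches lower the counts of the miR-29 and miR-181 genes was not tested, and no test was made between families.

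The files hold miRNA genes only, so the mRNA markers that define adrenal cortex and medulla were not analysed here. Mir375, an endocrine miRNA, stood at 43996 CPM in replicate 2 and 46454 CPM in replicate 1, and the 4 genes of the neuroendocrine list summed to 48363 and 50709 CPM. Kidney lies against the adrenal gland and is rich in miR-30. Its markers Mir192, Mir194-2 and Mir204 were at 16.8, 15.7 and 47.1 CPM in replicate 2 and at 29.2, 26.4 and 73.7 CPM in replicate 1, and Mir194-1 was below 1 CPM. Mir10a, also on the kidney list and not particular to kidney, held nearly all of the list's sum, 51172 of 51252 CPM in replicate 2 and 58513 of 58643 CPM in replicate 1. Of the 9 striated muscle genes 5 had no read in either library, namely Mir1a-1, Mir1a-2, Mir133a-1, Mir133a-2 and Mir133b. The striated muscle list summed to 6.07 CPM in replicate 2 and 7.70 CPM in replicate 1. Reads with several matches were counted on no gene, so a lack of reads does not show that a miRNA was absent. How far such reads lower the counts of the listed genes, Mir194-1 and Mir194-2 among them, was not tested. The liver miRNA Mir122 was at 108 and 78.1 CPM. The endothelial Mir126a stood at 41532 and 56684 CPM, the smooth muscle list at 21489 and 23925 CPM, the leukocyte list at 854 and 1147 CPM and the fat list, led by Mir378a, at 43679 and 36879 CPM, each for replicate 2 and then replicate 1. Mir378a alone held 42078 CPM of the fat list in replicate 2 and 35470 CPM in replicate 1. Of the other fat genes, Mir455 was higher in replicate 2, at 1330 against 826 CPM. Mir193b was lower there, at 266 against 578 CPM, and so was Mir365-1, at 4.19 against 4.95 CPM. The part of any of these cell types in the levels of the miR-30 genes was not tested.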

How the data were processed

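For each library the authors deposited a headerless table of raw counts, with 3 columns of counts per miRNA gene. Per the notes deposited with the tables, reads were placed on mm10 and genes taken from GENCODE M21. Which aligner and counter were used, and what each column holds, is not given in the sources used here. From the values, the columns were read as counts without regard to strand, counts on the strand of the gene and counts on the opposite strand. The strand column is the main one because the other leaves out Mir30e. Entries that name no gene stayed out of the totals; in the strand column 16.5% of replicate 2 and 16.1% of replicate 1 were unmapped, 33.6% and 31.6% had several matches, and 4.99% and 5.55% fell on no miRNA gene. P-values of Fisher's test, and of the binomial test used under other scalings, measure counting error only. Those of edgeR's test use a common spread estimated over the detected genes of these 2 samples, which may be technical.

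Of 2202 gene identifiers, all matched GENCODE M21, and 1032 had a sequence entry in RefSeq by symbol. The members, lists and tests were chosen with earlier results of these data known. Named genes are the 6 members, genes that overlap them or share a seed with them, the 2 genes nearest to each in level, the miR-29 and miR-181 genes and the tissue markers; Mir31, Mir674, Mir129-2 and the coding and noncoding genes at the loci were named after their values or positions were seen. Log2 ratios used an offset of 0.5 counts. Tests were Fisher's exact test and edgeR's exact test, adjusted over all genes or pairs at 0.05, and were tested on simulated data. For Fisher's test, on genes and on pairs, the simulated counts held counting error only. They cannot show how it behaves with the spread of these libraries. In the simulation for edgeR, its dispersion matched the true value where no gene was changed and exceeded it where many genes were changed. With that larger dispersion, the test called none of the changed genes. For edgeR, the common dispersion came from an intercept-only model with TMM on detected genes, and the test used plain totals. With TMM or DESeq2 scaling, Fisher's test gave way to an exact binomial test on the scaled totals. Alternatives covered the count column, scaling, denominator, filter, offset, pair distance and leaving out a library. Statistics ran in scipy 1.17.1 on Python 3.11.15, scaling and the dispersion in edgeR 4.0.16 and DESeq2 1.42.0 on R 4.3.3, and figures in matplotlib 3.10.9, with pandas 2.3.3 and numpy 2.4.6.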

Additional observations from a re-analysis of the deposited data

Results flagged for a closer look

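Reads appeared in a column outside the main measurement. In the opposite-strand column, Mir30f had 20503 reads in replicate 2 and 30583 reads in replicate 1, above the 3 counts that a count of 0 allows. These counts equal those of Mir30e on its own strand, and Mir30f had 0 reads on its own strand in both libraries.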

How the results depend on the processing

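The column without regard to strand, which has 0 reads for Mir30e, moved the family and locus shares. There the family share was 1.36% in place of 1.76%, the loci held 50.2% (Mir30a and Mir30c-2), 48.6% (Mir30b and Mir30d) and 1.28% (Mir30e and Mir30c-1) of miR-30 reads, the share of Mir30e in its locus was 0%, and Mir30e had no log2 ratio. With all reads as the denominator the family share was 0.811%. edgeR's exact test called 5 genes in place of 239, and 0 members in place of 5. The log2 ratio of Mir30a turned to 0.0108 under DESeq2 size factors. The other alternatives left these counts within 1.5 times, and neither the sum of both strand columns nor leaving out the Mir30c genes moved a family or locus share by 1 SD. Leaving out a library leaves the value of the other, which says nothing about stability with 2 libraries. It gave family shares of 1.52 to 2.00%, locus shares of 31.4 to 37.2%, 25.9 to 42.3% and 20.5 to 42.7% in the order above, and shares of 95.2 to 95.9% for Mir30a, 94.3 to 97.6% for Mir30d and 94.7 to 98.3% for Mir30e within their loci. Without replicate 1, the Nfyc locus stood at 20.5% in place of 31.6%, a move of over 1.5 times. The number of neighbour pairs whose partner share differed was 60 of 94. It was 44 of 76 in the column without regard to strand, 53 of 78 within 2 kb and 59 of 113 with a minimum of 1 read. Within 25 kb, a window chosen after seeing the data, it was 64 of 99. No paired analysis was possible because there is a single group. With 2 libraries, the spread of each value rests on 1 difference, and reads with several matches limit the Mir30c genes. The effect of such reads on Mir30b and Mir30d was not tested.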
